A study of Rattus norvegicus with 18 samples.

Results

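The response to 78 h without paradoxical sleep was compared between the hippocampal formation and the neocortex of the same rats. The unit of the comparison was the log2 difference between the hippocampal and the neocortical signal within an animal pool, and deprived pools were set against control pools. A response difference below 0 means that the signal after deprivation, relative to control, was lower in the hippocampal formation than in the neocortex, and one above 0 means that it was higher there. The comparison used 12 of the 18 arrays, which measured 8 of the 12 RNA pools and came from 4 of the 6 animal pools. The other 6 arrays held rats that were allowed to recover, and these entered the estimate of the spread only. These 12 arrays were taken by their labels for state and structure.

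All rats were male Sprague-Dawley, housed singly under a fixed light and dark cycle, and all carried electrodes for the electroencephalogram and the electromyogram. The labels give a body weight and no age. Deprived rats spent 78 h on platforms over water, the flowerpot method, in which an animal that enters paradoxical (rapid eye movement) sleep loses muscle tone, touches the water and wakes. Control rats stayed in the home cage, so platform housing and sleep loss cannot be told apart. All were killed at the same clock time. In each state there were 12 rats in 2 sets of 6, and equal masses of RNA from the right hemisphere were pooled within a set, separately for each structure. The groups were hippocampal formation after deprivation, hippocampal formation of controls, neocortex after deprivation and neocortex of controls, with n = 2 pools in each. For set 1 the RNA was pooled independently a second time, and the 2 arrays of each structure and state were averaged. Set 2 had 1 array each. Whether the sets of different states shared a day or a litter is not stated in the labels. A pool of 6 rats hides the spread between animals, so the p-values measure the spread between pools. In bulk tissue, fewer cells of a type and less RNA per cell cannot be told apart.

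The hippocampal formation and the neocortex are both built of glutamatergic principal neurons and local GABAergic interneurons. Neurons that fire strongly transcribe immediate early genes within minutes. These encode transcription factors such as Fos, the Egr family and the Nr4a family, and effector proteins that act at the synapse, such as Arc. Calcium and cyclic AMP signals reach many of these genes through CREB, a factor that binds the cyclic AMP response element (CRE), and through serum response factor, which binds CArG boxes. Glucocorticoid hormone, released from the adrenal gland under stress, reaches all brain regions through the blood and induces its own set of target genes through the glucocorticoid receptor.

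Each array gave signals for 31099 probe sets, scaled by the authors to a common level (array medians 32.1 to 37.1 signal units). After dim probe sets were left out, 18625 were tested. The libraries of set 1 and set 2 stood apart. On the first principal component (48.3% of the variance) the hippocampal pools of set 1 lay between 37.9 and 46.6 and those of set 2 between 0.2995 and 10.01, whereas the neocortical pools of both sets lay between -26.3 and -20.7, recovery pools included. Fibcd1 and Prox1, markers of hippocampal neurons, were higher in the hippocampal formation in all 6 animal pools, and Lamp5 and Cux2, markers of upper neocortical layers, were lower. Of 20 hippocampal neuron markers measured, 12 were higher there in all 6 animal pools and 1 was lower in all 6. Of 22 neocortical neuron markers, 12 were lower there in all 6 and 4 were higher in all 6. Values within each set, where each group has 1 pool and no test is possible, are therefore given for the activity-regulated and glucocorticoid lists and for the genes described in most detail.

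No single gene passed the test of a difference in response. With limma, 0 of 18625 probe sets had an adjusted p under 0.05 (0%), the smallest adjusted p was 0.324, and 924 (4.96%) had an unadjusted p under 0.05, of which 411 lay above 0 and 513 below. The fit left 2 residual degrees of freedom. The median response difference was 0.119 log2 units in size, and its median SE was 0.171. For comparison, single arrays of set 1 that repeated the same tissue differed by a median of 0.171 log2 units. The response difference of set 1 differed by a median of 0.302 between the first and the second of the repeated arrays. Between set 1 and set 2 it differed by a median of 0.234. Across the 18625 probe sets the response difference of set 1 and that of set 2 correlated at -0.03, as a description in which neighbouring probe sets share libraries. The count depended on the control pools. Without the control pool of set 1, limma called 135 probe sets, and without that of set 2 it called 31, each in a fit with 1 residual degree of freedom. Without any other animal pool it called 0.

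Within the structures, limma called 8 probe sets in the neocortex (0.0430% of those tested), all higher after deprivation, and 0 in the hippocampal formation (0%), where the smallest adjusted p was 0.225. At an unadjusted p under 0.05 there were 1332 probe sets in the neocortex (7.15%) and 894 in the hippocampal formation (4.80%). The 8 neocortical calls were Arc, Fos, Sgk1, Inka2, and 2 probe sets each of Gpd1 and Sc5d. A call in the neocortex beside none in the hippocampal formation does not show that the responses differ, and the test of that difference is the one given above. With no replicate block the neocortical count was 0, and with 1 animal pool left out it lay between 4 (deprived, set 2) and 182 (control, set 1), with 130 and 116 for the recovery pools of set 1 and set 2.

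Arc, whose protein acts at the synapse and in the trafficking of AMPA receptors, had the smallest p for the response difference. In the hippocampal formation its signal was 99.95 and 101.6 in the deprived pools of set 1 and set 2, against 112.9 and 97.2 in the control pools. In the neocortex it was 150.9 and 200.3 in the deprived pools, against 80.5 and 102.9 in the control pools. Both deprived neocortical pools stood above both control neocortical pools, while the hippocampal pools of the 2 states overlapped. The log2 change was -0.06 (SE 0.112) in the hippocampal formation and 0.93 (SE 0.100) in the neocortex, where it was 1.91-fold higher (limma, adjusted p = 0.0166). The response difference was -0.99 (SE 0.142, adjusted p = 0.324), with -1.08 in set 1 and -0.90 in set 2. The size within set 1 depended on the array: it was -0.54 with the first and -1.63 with the second of the repeated arrays. Over 15 alternative settings the response difference of Arc ranged between -1.26 and -0.72 and its adjusted p between 0.0104 and 1. Leaving out a control animal pool gave calls, at -0.91 (adjusted p = 0.0152) for that of set 1 and at -1.07 (adjusted p = 0.0104) for that of set 2.

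**Figure D1:**
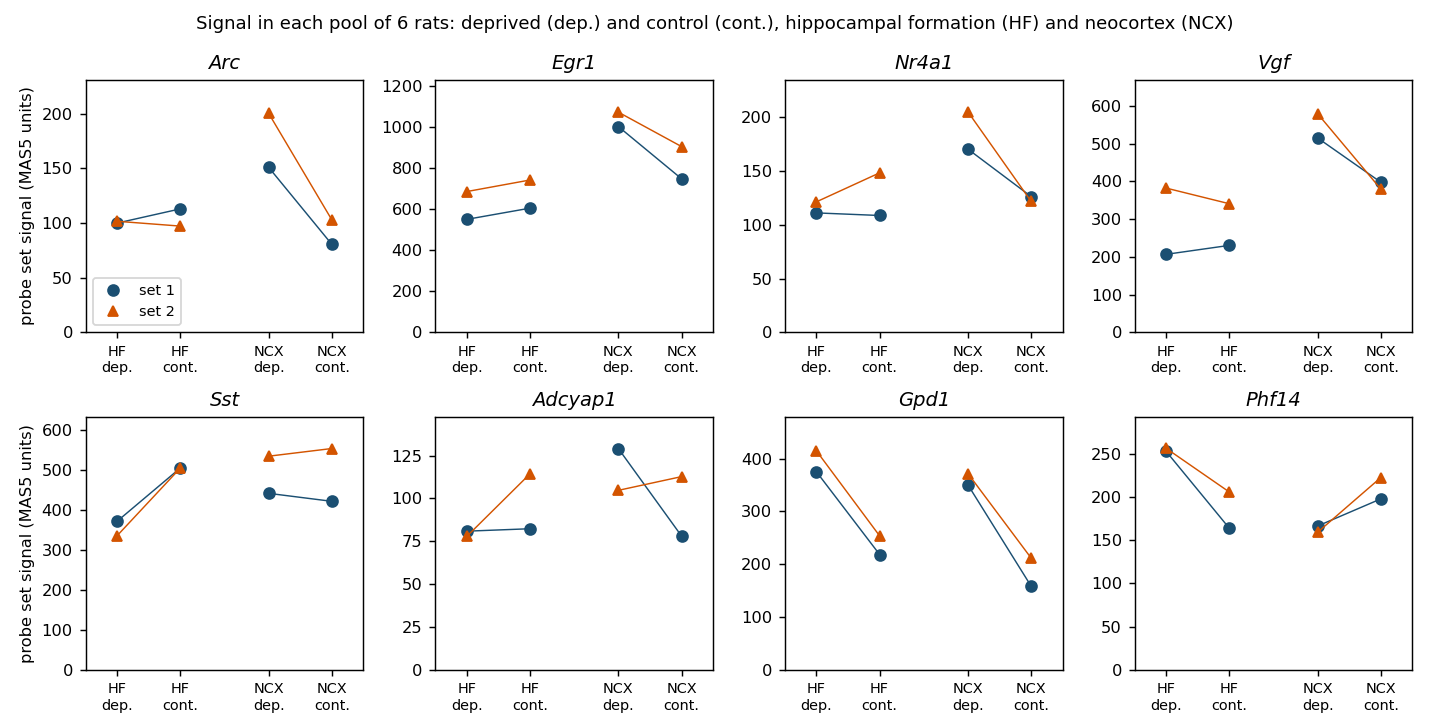
Signal of 8 genes in each pool of 6 rats, in MAS5 signal units on linear axes that start at 0. Circles mark set 1 (mean of 2 arrays on the log2 scale), triangles set 2, and lines join the deprived and control pools of a set within a structure. For Arc, Egr1, Nr4a1 and Vgf both lines fall to the control pools in the neocortex, and for Gpd1 they do so in both structures, while for Sst they rise to the controls in the hippocampal formation.

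Most immediate early genes that encode transcription factors had a response difference below 0. The list was chosen with earlier results of these data known, so its direction is not independent evidence. Of 24 genes listed, 17 were measured, and 15 had a response difference below 0, against 49.5% of all 10294 genes. The median change of the list was -0.04 in the hippocampal formation and 0.24 in the neocortex, and its median response difference was -0.23 (-0.33 in set 1 and -0.27 in set 2), against 0.00 over all genes. For 8 of the 17, both deprived differences lay below both control differences, which held for 11.2% of all genes, and for 0 of the 17 they lay above (12.2% of all genes). In the neocortex 13 of the 17 were higher in both sets (25.0% of all genes) and 1, Fos, was called. At an unadjusted p under 0.05, 7 of the 17 were higher in the neocortex (3.52% of all genes) and 5 had a response difference below 0 (2.52% of all genes). No member passed the test of the response difference.

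Egr1, a zinc finger transcription factor, was the member with the smallest p. Its signal was 551 and 687 in the deprived hippocampal pools, against 606 and 743 in the control hippocampal pools. It was 1004 and 1074 in the deprived neocortical pools, against 749 and 907 in the control neocortical pools. In the neocortex the deprived pools lay above the controls, and in the hippocampal formation each deprived pool lay below the control pool of its set. The response difference was -0.46 (SE 0.101, adjusted p = 0.943), with -0.56 and -0.36 in the sets. Nr4a1, an orphan nuclear receptor, had 111 and 121 in deprived hippocampal pools, against 109 and 148 in controls, and 170 and 205 in deprived neocortical pools, against 126 and 122 in controls. Its response difference was -0.72 (SE 0.162, adjusted p = 0.982), with -0.40 and -1.04 in the sets. Egr2, a close relative of Egr1, had a signal of 27.0 and 34.8 in deprived hippocampal pools, against 28.5 and 41.3 in controls. In the neocortex it had 54.8 and 55.8 in deprived pools, against 38.1 and 27.3 in controls. For Nr4a1 and Egr2 alike the neocortical pools separated by state and the hippocampal pools overlapped.

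Fos, a subunit of the AP-1 factor, was above the control of its set in each deprived pool of both structures. Its signal was 51.1 and 86.5 in deprived hippocampal pools, against 35.7 and 78.0 in controls, and 132 and 182 in deprived neocortical pools, against 58.7 and 109 in controls. The neocortical change was 0.95 (limma, adjusted p = 0.0247), the hippocampal change 0.33 (adjusted p = 0.993) and the response difference -0.62 (SE 0.230, adjusted p = 0.982), with -0.65 and -0.58 in the sets. Klf10, a Krüppel-like repressor, had a response difference of -0.37 (-0.33 in set 1 and -0.41 in set 2), and Egr4 one of -0.36 (-0.41 and -0.31). The members above 0 were Junb, at 0.06, and Nr4a2, at 0.09. Nr4a3 had 408 and 446 in deprived hippocampal pools, against 374 and 405 in controls. Its changes were 0.13 in the hippocampal formation and 0.25 in the neocortex, so both structures lay above control for this member.

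The start regions of some genes for which the neocortical and hippocampal values parted are printed here, picked because known activity-response motifs can be read in them. They run from 250 bases before to 50 bases after the start in RefSeq on GRCr8, 5′ to 3′ on the strand of the gene. Capitals mark the CRE half-site TGACG on either strand, the full CRE TGACGTCA, and CArG boxes, and a half-site within a full CRE is counted in both. Egr1 is at chr18:26736828-26737127 on the plus strand, Egr2 at chr20:21054392-21054691 on the minus strand, Nr4a1 at chr7:134259888-134260187 on the plus strand and Vgf at chr12:25276971-25277270 on the minus strand. Sst, whose values follow below, is at chr11:90461296-90461595 on the plus strand.
Egr1: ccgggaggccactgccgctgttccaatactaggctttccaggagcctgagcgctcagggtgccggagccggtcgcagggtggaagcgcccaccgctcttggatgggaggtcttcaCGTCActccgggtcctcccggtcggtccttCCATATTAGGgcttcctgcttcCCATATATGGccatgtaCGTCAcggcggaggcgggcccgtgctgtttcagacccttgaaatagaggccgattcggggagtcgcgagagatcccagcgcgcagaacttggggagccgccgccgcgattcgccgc
Egr2: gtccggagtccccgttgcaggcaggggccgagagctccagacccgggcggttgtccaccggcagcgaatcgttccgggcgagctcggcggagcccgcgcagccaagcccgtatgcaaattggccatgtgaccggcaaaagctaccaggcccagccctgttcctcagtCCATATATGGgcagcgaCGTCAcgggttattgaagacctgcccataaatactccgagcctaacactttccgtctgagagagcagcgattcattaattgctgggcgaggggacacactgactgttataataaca
Nr4a1: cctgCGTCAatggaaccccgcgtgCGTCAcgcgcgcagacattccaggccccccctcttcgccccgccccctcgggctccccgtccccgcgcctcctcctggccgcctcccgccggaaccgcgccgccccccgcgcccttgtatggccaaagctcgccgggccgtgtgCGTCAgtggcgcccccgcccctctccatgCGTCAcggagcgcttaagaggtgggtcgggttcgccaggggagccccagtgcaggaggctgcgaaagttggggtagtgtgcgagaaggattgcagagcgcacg
Vgf: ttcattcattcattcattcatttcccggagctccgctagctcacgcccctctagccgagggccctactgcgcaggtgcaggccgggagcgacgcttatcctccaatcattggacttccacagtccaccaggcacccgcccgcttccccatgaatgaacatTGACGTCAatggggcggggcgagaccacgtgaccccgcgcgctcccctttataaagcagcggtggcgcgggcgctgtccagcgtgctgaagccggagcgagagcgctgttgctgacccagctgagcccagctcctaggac
Sst: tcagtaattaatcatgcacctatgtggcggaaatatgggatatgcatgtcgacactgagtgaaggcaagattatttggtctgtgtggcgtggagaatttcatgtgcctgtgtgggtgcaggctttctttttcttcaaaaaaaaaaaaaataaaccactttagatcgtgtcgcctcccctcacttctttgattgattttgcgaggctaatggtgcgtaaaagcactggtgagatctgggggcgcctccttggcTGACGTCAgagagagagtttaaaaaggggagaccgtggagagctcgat
Both CArG boxes of the Egr1 region lie between its 2 half-sites, and the 1 of Egr2 lies shortly before its half-site. Nr4a1 has 4 half-sites, and Vgf and Sst each have 1 full CRE. Among 33469 RefSeq start regions of the same length, 1.83% held a full CRE, 21.2% a half-site and 1.64% a CArG box. In the lists a gene with several start regions was counted when any of them held the motif, so these shares are not strictly like those per region. Of the 17 immediate early transcription factor genes 13 were matched to at least 1 region, and 11 of these (84.6%) held a half-site, 3 a full CRE and 2 a CArG box. Of 28 activity-regulated effector genes 25 were matched, with a half-site in 15 and a full CRE in 5. The region of Ptgs2, an effector whose values also parted, held none of these motifs. Arc and Fos had no region in the reference used. Of 27 glucocorticoid-responsive genes 23 were matched, with a half-site in 8 (34.8%) and a full CRE in 1. A match describes the letters and not binding. The lists were chosen from genes known to respond to activity, so their share of CRE letters is background to their choice and no result of these arrays.

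Activity-regulated effectors lay closer to 0 as a list. Of 37 listed genes 28 were measured, and 20 of these lay below 0, against 49.5% of all genes. Their median response difference was -0.08 (-0.12 in set 1 and -0.15 in set 2). The median change was -0.01 in the hippocampal formation and 0.13 in the neocortex. Both deprived differences lay below both control differences for 6 genes (21.4%, against 11.2% of all genes). They lay above them for 3 (10.7%, against 12.2% of all genes). The list median was -0.18 when all probe sets of a gene were averaged and -0.04 with the second of the repeated arrays.

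Vgf, the precursor of several neuronal peptides, had a signal of 207 and 382 in deprived hippocampal pools, against 230 and 341 in controls. In the neocortex it had 515 and 579 in deprived pools, against 397 and 379 in controls. The deprived neocortical pools lay above the controls, and the hippocampal pools overlapped and differed more by set than by state. The response difference was -0.49 (SE 0.101, adjusted p = 0.793), with -0.53 and -0.44 in the sets. Gadd45b, a growth arrest and DNA damage gene induced by activity, had 51.0 and 45.3 in deprived hippocampal pools, against 63.5 and 38.2 in controls, and 50.7 and 69.2 in deprived neocortical pools, against 22.2 and 38.5 in controls. Its response difference was -1.05 (SE 0.288, adjusted p = 0.982), and it was -1.51 in set 1 and -0.60 in set 2. Ptgs2, the inducible cyclooxygenase, had one of -0.29 (-0.31 and -0.27 in the sets). Bdnf, which encodes brain-derived neurotrophic factor, had one of -0.27, with -0.09 and -0.45 in the sets and -0.36 with a second probe set. Sik1, a salt-inducible kinase, had -0.95 (-0.28 and -1.62), of which the size is not settled because its neocortical control signal in set 2 (9.20) lay under the filter level of 19.7.

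Per1 was an effector with a response difference above 0. This clock gene, which also answers to glucocorticoids, had 65.4 and 81.0 in deprived hippocampal pools, against 43.2 and 67.6 in controls, and 67.2 and 80.1 in deprived neocortical pools, against 63.8 and 81.3 in controls. Each deprived hippocampal pool was above the control of its set, and in the neocortex the states overlapped. The response difference was 0.40 (SE 0.213, adjusted p = 0.993), with 0.52 and 0.28 in the sets. Dusp1, a phosphatase of MAP kinases, had a signal of 177 and 180 in deprived hippocampal pools, against 90.1 and 183 in controls, and 336 and 325 in deprived neocortical pools, against 181 and 280 in controls. In both structures the control pool of set 1 was the lowest, and the response difference was -0.08, with 0.09 and -0.25 in the sets.

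**Figure D2:**
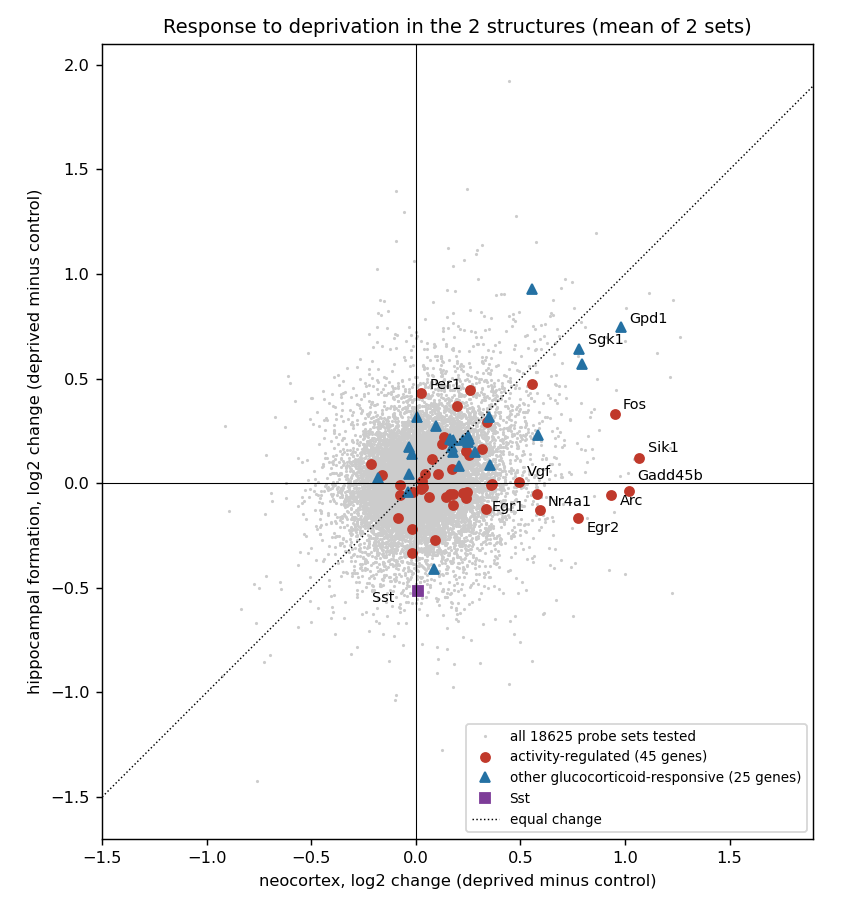
Log2 change after deprivation in the neocortex (horizontal) and in the hippocampal formation (vertical) for all 18625 probe sets, each the mean of 2 sets. Activity-regulated genes are circles, other glucocorticoid-responsive genes triangles (1 probe set a gene), and points below the dotted line had a response difference below 0. Arc, Egr2, Nr4a1 and Vgf lie to the right and near 0 on the vertical axis, while Gpd1 and Sgk1 lie near the dotted line.

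Most glucocorticoid-responsive genes lay above control in both structures. Of 27 measured, 25 were above control in the hippocampal formation and 22 in the neocortex, against 48.9% and 48.0% of all genes. The median change was 0.21 in the hippocampal formation and 0.20 in the neocortex, and the median response difference was -0.02 (-0.06 and 0.02 in the sets), with 17 genes below 0 and 10 above. The list was chosen with its response in these arrays known, so its direction is not independent evidence. Gpd1, a glycerol-3-phosphate dehydrogenase induced by the hormone, had 375 and 415 in deprived hippocampal pools, against 218 and 254 in controls, and 350 and 371 in deprived neocortical pools, against 158 and 211 in controls. The states did not overlap in either structure. It was called in the neocortex (log2 change 0.98, limma, adjusted p = 0.0149) and not in the hippocampal formation (0.74, adjusted p = 0.225), and its response difference was -0.23 (SE 0.112, adjusted p = 0.982). A second probe set of Gpd1 with a lower signal gave -0.71. Sgk1, a kinase induced by glucocorticoids, had 886 and 690 in deprived hippocampal pools, against 490 and 512 in controls, and 736 and 701 in deprived neocortical pools, against 368 and 476 in controls. Its response difference was -0.14 (SE 0.0938, adjusted p = 0.993).

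Some members of that list lay farther from 0. Mt2A, a metallothionein, had 462 and 272 in deprived hippocampal pools, against 353 and 230 in controls, and 280 and 217 in deprived neocortical pools, against 306 and 196 in controls. Its response difference was 0.31 (SE 0.125, adjusted p = 0.982), with 0.52 and 0.10 in the sets. S100a10, a partner of annexin A2, was below control in both hippocampal sets (158 and 165 in deprived pools, against 236 and 194 in controls) and had a response difference of -0.50 (SE 0.133, adjusted p = 0.982). The other 2 genes called in the neocortex, Sc5d and Inka2, are not on the glucocorticoid list. Sc5d, a desaturase of cholesterol synthesis, was called in the neocortex with 2 probe sets, at log2 changes of 1.15 and 0.78 (limma, adjusted p = 0.0202 for each), where the hippocampal changes were 0.62 and 0.61. The third probe set of Sc5d, the one with the highest signal, had changes of -0.05 and -0.01. Inka2, which encodes an inhibitor of the kinase Pak4, changed by 0.56 in the neocortex (adjusted p = 0.0481) and by 0.19 in the hippocampal formation, a response difference of -0.36 (-0.29 and -0.44 in the sets).

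**Figure D3:**
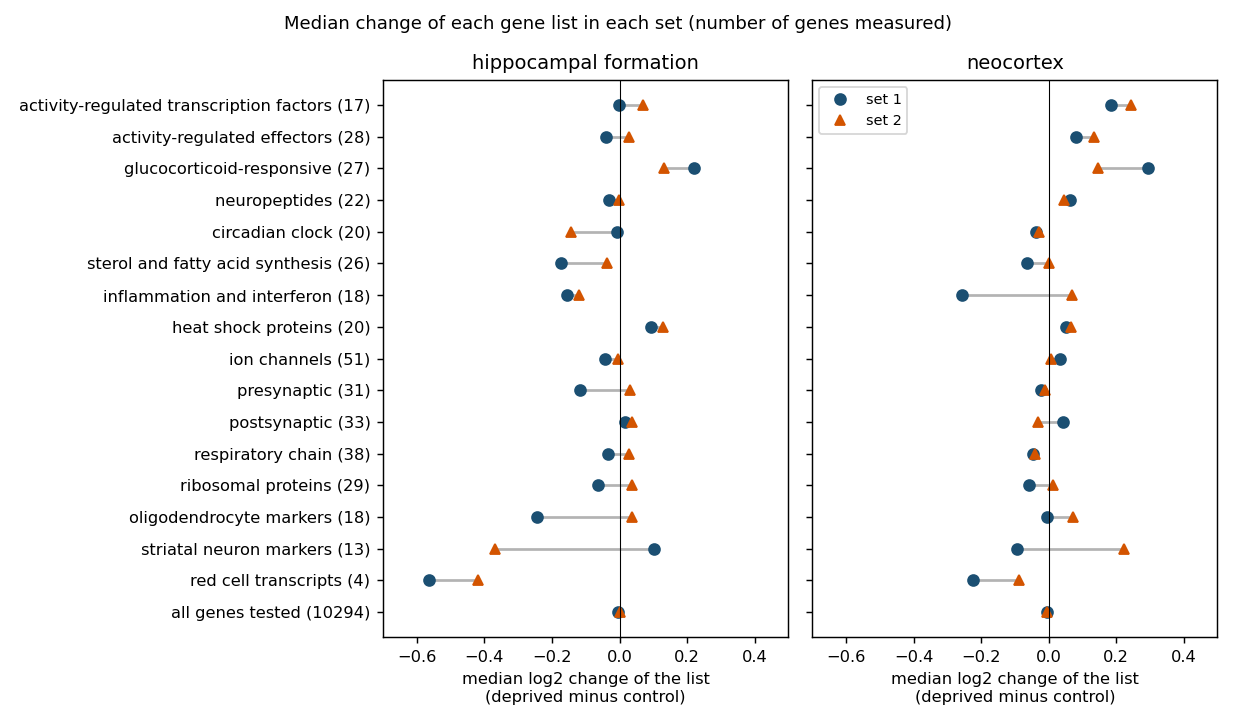
Median log2 change of gene lists in the hippocampal formation (left) and in the neocortex (right), with set 1 as circles, set 2 as triangles and the number of measured genes in brackets. Both activity-regulated lists lie to the right of 0 in the neocortex and near 0 in the hippocampal formation. The glucocorticoid list lies to the right in both structures, and the sets part widely for striatal neuron markers.

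Neuropeptide precursors, which hippocampal and neocortical interneurons and some principal cells make, were below 0 in 17 of 22 measured genes, with a median response difference of -0.07. Sst encodes somatostatin, the peptide of a large class of dendrite-targeting interneurons. Its signal was 371 and 335 in deprived hippocampal pools, against 504 and 504 in controls. In the neocortex it was 441 and 534 in deprived pools, against 421 and 553 in controls. The deprived hippocampal pools both lay below the controls, and the neocortical pools overlapped. The hippocampal change was -0.52 (a fold of 0.699, limma, adjusted p = 0.406) and the neocortical change 0.01. The response difference was -0.52 (SE 0.100, adjusted p = 0.522), with -0.51 and -0.54 in the sets and between -0.58 and -0.47 over 15 alternative settings. With the control animal pool of set 1 left out it was called (adjusted p = 0.0349).

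Further peptide genes lay below 0. Nts, which encodes neurotensin, had 333 and 240 in deprived hippocampal pools, against 314 and 267 in controls, and 40.7 and 37.9 in deprived neocortical pools, against 28.6 and 30.1 in controls. This is a response difference of -0.45 (adjusted p = 0.982), with -0.42 and -0.49 in the sets. Tac1, the substance P precursor, had one of -0.57 (-0.52 and -0.61 in the sets) and is also a marker of striatal neurons. Adcyap1, which encodes PACAP, had -0.60 (-0.75 and -0.45), with changes of -0.29 in the hippocampal formation and 0.31 in the neocortex. Its signal was 80.9 and 77.8 in deprived hippocampal pools, against 82.3 and 114 in controls, which did not overlap, and 129 and 105 in deprived neocortical pools, against 78.1 and 113 in controls, which did. A dimmer probe set gave -0.10. Chga, a granin of secretory vesicles, went the other way at 0.46, and Pdyn, the dynorphin precursor, had one of 0.40. Crh, the corticotropin-releasing hormone gene, was above control in both structures, with changes of 0.69 and 0.59, the first with the hippocampal control mean under the filter level.

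Opposite changes were searched for directly. A probe set was placed in this class when both sets changed by at least 0.2 log2 units one way in one structure and by at least 0.2 the other way in the other. That held for 44 of 18625 (0.236%): 15 (0.0805%) were higher in the hippocampal formation and lower in the neocortex, and 29 (0.156%) were the reverse. No member of the class passed the test of the response difference, and 13 of the 44 had at least 1 group with a mean under the filter level. Phf14, a chromatin protein with PHD fingers, had the smallest p among genes above 0. Its signal was 253 and 257 in deprived hippocampal pools, against 164 and 206 in controls, and 167 and 159 in deprived neocortical pools, against 198 and 223 in controls. The states separated in both structures, in opposite directions. The structures differed by 0.84 (SE 0.133, limma, adjusted p = 0.324), with 0.88 and 0.80 in the sets. Other probe sets of Phf14 gave -1.01 and 0.16, so the probe sets of this gene disagreed in direction.

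Scaffolds of the postsynaptic density appeared in the class with the hippocampal formation lower. Dlg4, which encodes PSD-95, had 93.1 and 85.4 in deprived hippocampal pools, against 135 and 101 in controls, and 94.9 and 134 in deprived neocortical pools, against 77.4 and 96.5 in controls. For this probe set the response difference was -0.77 (SE 0.1503, adjusted p = 0.555). A brighter probe set of Dlg4 gave -0.34 and the other gave 0.02. Dlg2, which encodes PSD-93, had 33.8 and 33.6 in deprived hippocampal pools, against 45.5 and 43.5 in controls, and 42.8 and 61.6 in deprived neocortical pools, against 36.7 and 41.4 in controls. The responses of this gene differed by -0.80 (SE 0.258, adjusted p = 0.982). Over the 33 postsynaptic genes measured, 17 lay below 0 and 16 above and the median was -0.01, against 0.00 over all genes. Dlgap3, a partner of PSD-95, had -0.35, and a dimmer probe set gave -0.08. For the brighter one, set 1 gave -0.01 with the first and -0.68 with the second of the repeated arrays. Camk2a, the calcium-dependent kinase of the synapse, had 0.25, while the dimmest of its 3 other probe sets gave -0.23.

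Ints13 and Ints15 encode subunits of Integrator, a complex that processes small nuclear RNAs. Ints15 had 64.3 and 67.5 in deprived hippocampal pools, against 76.8 and 89.9 in controls, and 90.1 and 85.8 in deprived neocortical pools, against 65.1 and 61.5 in controls. The responses differed by -0.81 (SE 0.171, adjusted p = 0.828). Ints13 had one of -1.26 (SE 0.296), with -0.70 in set 1 and -1.82 in set 2, against -0.26 with a brighter probe set. Uck2, a uridine-cytidine kinase, and Sppl2b, an intramembrane protease, went the other way, at 0.90 and 0.88.

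**Figure D4:**
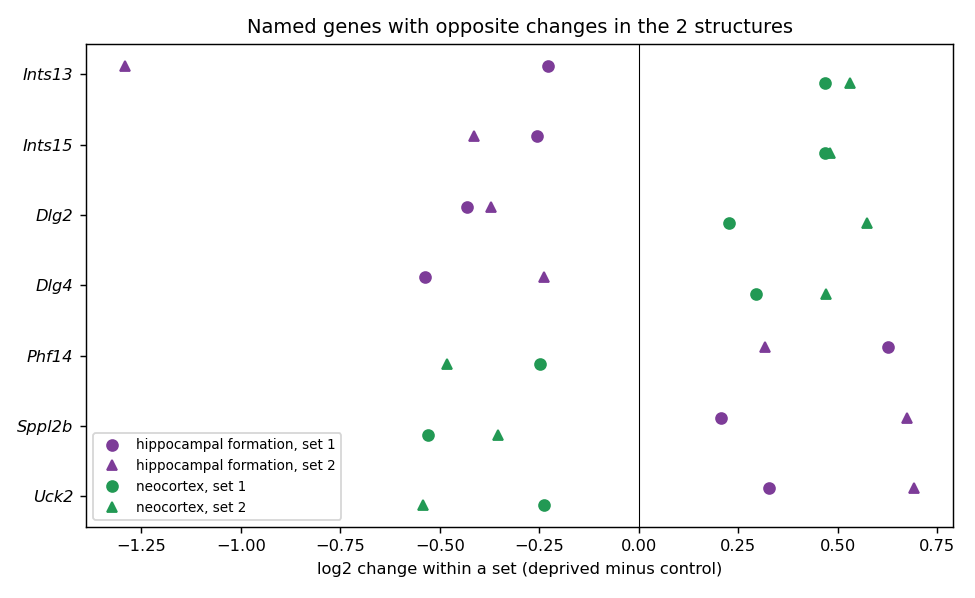
Log2 change within each set (horizontal) for 7 genes whose changes were opposite in the structures, with the hippocampal formation in purple, the neocortex in green, circles for set 1 and triangles for set 2. For the upper 4 genes all hippocampal points lie left of 0 and all neocortical points right of it. For Phf14, Sppl2b and Uck2 the sides are exchanged.

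Changes seen in one structure and small in the other were counted next. Both sets had to change by at least 0.3 the same way in one structure, with a mean change under 0.15 in size in the other. This held for 201 probe sets in the hippocampal formation (1.08%), 87 higher (0.467%) and 114 lower (0.612%), and for 204 in the neocortex (1.10%), 151 higher (0.811%) and 53 lower (0.285%). A further 47 (0.252%) changed by at least 0.3 in both sets of both structures in the same direction, 39 higher (0.209%) and 8 lower (0.0430%). In none of these probe sets was the response difference called, so for no single gene was a response shown to be particular to a structure. With the dimmest 60% of probe sets left out in place of 40%, fewer were counted: 41, 61, 11 and, for opposite changes, 9.

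Among genes lower in the hippocampal formation were Phf20 and Hs3st2. Phf20, a reader of methylated lysines, had 46.3 and 74.0 in deprived hippocampal pools, against 75.8 and 134 in controls, and 56.5 and 182 in deprived neocortical pools, against 51.6 and 173 in controls. Its levels differed more between sets than between states, and within each set the deprived hippocampal pool was the lower. This gave a response difference of -0.89 (SE 0.166, limma, adjusted p = 0.522), and 3 other probe sets of the gene gave between -0.24 and 0.17. Hs3st2, a heparan sulfate sulfotransferase and neocortical marker, had a response difference of -0.53. Cmip and Aebp1 had -0.93 and -0.72, the first with the deprived hippocampal mean under the filter level. The 2 other probe sets of Cmip, both brighter, gave -0.13 and -0.08, and a dimmer one of Aebp1 gave -0.35 with a hippocampal change of 0.05. Genes higher in the hippocampal formation included Zc3h13, a subunit of the RNA methylation complex (42.3 and 51.9 in deprived pools, against 28.4 and 31.4 in controls, response difference 0.74), and Phka1, a phosphorylase kinase subunit (44.9 and 40.5, against 31.8 and 20.5, response difference 0.88). A brighter probe set of Zc3h13 gave 0.24 and one of Phka1 gave 0.09, with hippocampal changes of 0.11 and 0.18. Col15a1 had 1.49, with a size that is not settled because its control signal was 6.87 and 13.6.

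In the neocortex the class of higher genes held Arc, Nr4a1, Vgf, Gadd45b and Sik1, given above, and Lrrc61 (-0.96, or -0.44 with a brighter probe set). Genes lower in the neocortex included Plk5, a polo-like kinase (22.7 and 31.5 in deprived pools, against 45.8 and 54.0 in controls, response difference 0.76), Pf4, platelet factor 4 (47.8 and 44.8, against 96.3 and 60.6, response difference 0.58), and Cbln1, a secreted synapse organizer, at 0.65, or 0.11 with a brighter probe set. In each the deprived neocortical pools lay below both controls. Among shared changes was Rbm3, a cold-inducible RNA-binding protein, named after its values were seen, with log2 changes of -0.54 in the hippocampal formation and -0.41 in the neocortex. Igfbp5, an insulin-like growth factor binding protein, had -0.60 and -0.83, with the deprived neocortical mean under the filter level, so that the second size is not settled. A much brighter probe set of Igfbp5 had -0.20 and -0.45, and a dimmer one had -0.20 and -0.33. Neither of these met the limits of the shared class.

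Among the genes with the smallest p-values for the response difference, those not yet described were Id2, Bcat1, Dnajb5 and Zeb1 below 0, and Dock3, Cdh22, Mtif2, Macf1, Lmtk2, Ypel4, Gpatch4 and LOC102547703 above 0. Id2 encodes an inhibitor of basic helix-loop-helix factors. Its signal was 1091 and 694 in deprived hippocampal pools, against 1477 and 644 in controls, and 808 and 881 in deprived neocortical pools, against 758 and 522 in controls. The hippocampal pools differed by set first, and the neocortical states separated. Its responses differed by -0.59 (SE 0.0920, limma, adjusted p = 0.324), with -0.53 and -0.65 in the sets, and a second probe set gave -0.20. Bcat1, the cytosolic branched-chain aminotransferase, had -0.58 (adjusted p = 0.522), against 0.00 with a second probe set. Dnajb5, an Hsp40 chaperone, had -0.64 (adjusted p = 0.522), while its other probe sets gave 0.26 and 0.07. Zeb1, a zinc finger repressor, had -0.62 (adjusted p = 0.930).

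Of those above 0, none passed the test (limma, adjusted p = 0.982 for each). Dock3, which activates the GTPase Rac, had 146 and 188 in deprived hippocampal pools, against 126 and 185 in controls, and 299.97 and 273 in deprived neocortical pools, against 330 and 455 in controls. The neocortical pools separated by state, with the deprived pools lower, and the hippocampal pools overlapped. Its responses differed by 0.56, with 0.35 and 0.76 in the sets. Within set 1 the response difference of Dock3 was -0.41 with the first and 1.11 with the second of the repeated arrays, so its sign there was not settled. Mtif2, a mitochondrial translation initiation factor, had 0.50 (0.55 and 0.46), and Macf1, which links microtubules to actin, had 0.45 (0.37 and 0.52). Ypel4 had 0.49 and LOC102547703 had 0.58. Cdh22, a cadherin, had 0.61, but 0.98 in set 1 and 0.23 in set 2, and its hippocampal control signal was 270.4 in set 1 and 706 in set 2. Lmtk2, a kinase, had 0.38, and a dimmer probe set gave -0.44. Gpatch4 had 1.48, with a size that is not settled because its hippocampal control signal was 8.76 and 13.9, and its 3 other probe sets gave between 0.08 and 0.26.

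Lists of neuronal function and of basic cell functions had median response differences between -0.12 and 0.04. The median of the activity-regulated effectors, -0.08, lay within this range. Of 51 ion channel genes 29 lay below 0, with a median of -0.06. Kcnip3, a calcium sensor bound to potassium channels, had -0.61 (-0.28 and -0.94 in the sets, and -0.14 with a dimmer probe set), and Cacna1h, a T-type calcium channel, had -0.75 (-1.12 and -0.39). Kcna4 had 0.41 and Scn2a 0.27. Presynaptic genes (31 measured) had a median of -0.05, glutamate receptors (18) of -0.05, GABA signalling genes (18) of 0.00, respiratory chain genes (38) of 0.04, cytosolic ribosomal proteins (29) of -0.01 and heat shock proteins (20) of 0.04. Receptors of the neuromodulators (26) had a median of -0.12, with -0.04 in set 1 and -0.22 in set 2, and 17 of them lay below 0. Among these, Htr2c, a serotonin receptor, had 561 and 639 in deprived hippocampal pools, against 455 and 598 in controls, and a response difference of 0.31 (SE 0.138, adjusted p = 0.982). A dimmer probe set of Htr2c gave -0.16, the opposite sign. Genes of inflammation and the interferon response (18) had a median of -0.07, which was 0.10 in set 1 and -0.18 in set 2. Of 20 clock genes 10 lay below 0 and 10 above, with Nr1d1, a repressor of the clock, at -0.37 and Per2 at -0.28. Of 26 genes of sterol and fatty acid synthesis 19 lay below 0, with a median of -0.07 and Acat2, a thiolase, at -0.58 (-0.25 and -0.91 in the sets).

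Markers of blood and of other cell types also moved. Of 4 red cell transcripts 3 had a response difference below 0 (median -0.30), and the median change was -0.50 in the hippocampal formation and -0.12 in the neocortex. Their summed signal was 2450 and 1604 in deprived hippocampal pools, against 3358 and 1912 in controls, and 2152 and 1995 in deprived neocortical pools, against 2623 and 2104 in controls. Hba-a3, an alpha globin, had a response difference of -0.55 and Hbb, the beta globin, one of -0.23. Of 18 oligodendrocyte markers 14 lay below 0, with a median of -0.10 (-0.17 in set 1 and 0.07 in set 2). For microglial markers it was 10 of 13, with a median of -0.05 (-0.06 in set 1 and -0.10 in set 2). Of 13 striatal neuron markers 12 lay below 0, with a median of -0.18, but the median was 0.17 in set 1 and -0.61 in set 2. Their summed signal was 1411 and 1210 in deprived hippocampal pools, against 1303 and 1555 in controls, and 3394 and 3263 in deprived neocortical pools, against 3647 and 2973 in controls. Drd2 and Adora2a, defining markers of striatal neurons, had signals of 3.21 to 24.4 in the hippocampal formation, around the filter level of 19.7, and of 62.9 to 88.8 in the neocortex. Their part in the values of Tac1 and of the activity-regulated genes was not tested.

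Ttr, the defining transcript of choroid plexus, had 4387 and 436 in deprived hippocampal pools, against 2711 and 1253 in controls, and 1523 and 483 in deprived neocortical pools, against 1783 and 114 in controls. The 5 choroid plexus transcripts measured had a median response difference of 1.06 in set 1 and -1.30 in set 2, opposite in sign. Enpp2, at 0.31, is on this list and also counts among the oligodendrocyte markers above. Hippocampal neuron markers (20 measured) had a median response difference of -0.02, neocortical neuron markers (22) of -0.06, astrocyte markers (15) of 0.04, endothelial markers (15) of -0.04 and thalamic neuron markers (9) of 0.12. Meningeal markers (18) had 0.13 in set 1 and -0.33 in set 2, so their direction depended on the set. The beta-actin ratio of 3′ to 5′ probe sets, which is higher where RNA is more degraded, was 2.47 and 2.44 in deprived hippocampal pools, against 2.42 and 2.52 in controls, and 3.01 and 2.35 in deprived neocortical pools, against 2.69 and 2.61 in controls. Of the neocortical pools, the deprived pool of set 1 had the highest beta-actin ratio and that of set 2 the lowest. The same ratio of Gapdh ranked the neocortical pools in the reverse order. It was 1.0497 and 1.1474 in deprived neocortical pools, against 1.0775 and 1.1191 in controls. The transcripts therefore gave no settled order of degradation among these pools. The part of RNA quality in the results was not tested.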

How the data were processed

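Affymetrix rat arrays were hybridised with cRNA from pools of RNA of 6 rats. The deposited values were probe set intensities (signals) on a linear scale, made with MAS5 per the submitters' processing notes; its version and scaling target are not given in the sources used here. Trimmed means of 100.03 on each array show a common scaling. Values under 1 (1119 to 2022 per array) were set to 1 before log2 was taken, with no further normalization. Of 31099 probe sets, 57 controls and then the lowest 40% by mean log2 signal (under 19.7) were left out, which kept 18625. The platform annotation gave 1 symbol to 20832, several to 436 and none to 9831; 14113 of those kept had 1, for 10294 genes.

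limma 3.58.1 in R 4.3.3 (lmFit, eBayes with intensity trend, Benjamini-Hochberg over 18625) was fitted to the 6 animal-pool differences, hippocampal formation minus neocortex, with the set as block (2 residual and 9.33 prior degrees of freedom), and to the 6 pools of each structure. The fit to the differences was also run on simulated data with independent noise and the same block. Such data cannot check whether the sets pair across states. Same-numbered deprived and control pools deviated from their group means together (correlation 0.513 for the differences, 0.682 in the hippocampal formation and 0.539 in the neocortex), so the set was kept as block as the comparison prescribes. Lists used 1 probe set per gene, the brightest. Named genes were the 10 smallest p each way for the response difference with both sets of 1 sign, the 5 largest of each response class, genes called in 1 structure, up to 4 of each list by p, and Arc, Gpd1 and Sgk1. Further list members (Egr4, Junb, Nr4a2, Nr4a3, Dusp1, Crh, Nts, Pdyn) and Rbm3 were named after their values were seen. Members and lists were chosen with earlier results of these data known. Alternatives changed the replicate block, filter, floor, normalization, samples, repeated arrays and trend. The number of arrays limits the precision.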

Additional observations from a re-analysis of the deposited data

Results flagged for a closer look

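In 3 of 31 lists the median change had opposite signs in the structures in both sets. It was below 0 in the hippocampal formation and above 0 in the neocortex. The lists were neuropeptides (median response difference -0.0669), ion channels (-0.0579) and neocortical neuron markers (-0.0629). The differences themselves were not tested. Over all genes the set 1 and set 2 medians were -0.01 and 0.00 in the hippocampal formation, and -0.01 and -0.01 in the neocortex. List medians this close to 0 give no settled direction. In the neuropeptide list the hippocampal medians were -0.03 in set 1 and 0.00 in set 2, and the neocortical medians 0.06 and 0.05. The ion channel list had -0.04 and -0.01 in the hippocampal formation, and 0.03 and 0.01 in the neocortex. The neocortical markers had -0.02 and -0.13 in the hippocampal formation, and 0.03 and 0.05 in the neocortex.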

How the results depend on the processing

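The number of probe sets called for the response difference was 0 in every fit that kept all animal pools, with no replicate block too, where 213 had an unadjusted p under 0.05. Leaving out 1 animal pool gave between 0 and 135, and each such fit has 1 residual degree of freedom. In the neocortex the count of 8 was 0 with no replicate block, 0 with no filter on dim probe sets, 0 with no intensity trend, 1 with the first of the repeated arrays, 2 with a floor of 16 and 121 with control and deprived pools only, and it was between 4 and 182 with 1 animal pool left out. In the hippocampal formation the count of 0 became 13 with control and deprived pools only and lay between 0 and 97 with 1 animal pool left out. With no filter, opposite, hippocampal, neocortical and shared classes held 570, 804, 681 and 370 probe sets. With the stricter filter of 60% they held 9, 41, 61 and 11, because members dimmer than that filter were left out. Opposite changes numbered 74 with the first and 74 with the second repeated array. The median response difference of activity-regulated transcription factors was -0.27 with no filter, -0.39 with the first repeated array, and between -0.33 and -0.27 within a single set. That of effectors was -0.11 with quantile normalization, -0.13 and -0.0447 with the first and second repeated array, -0.18 with all probe sets of a gene averaged, and between -0.15 and -0.12 within a single set. Other causes of these shifts were not tested. None of the 33 named probe sets followed through the alternatives changed the sign of its response difference. They were chosen from these same data by small p-values, many also by equal signs in both sets. A kept sign was therefore largely fixed by that choice and is no independent evidence. Signals under the filter level give directions and no settled sizes.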
